A study of Mus musculus with 2 samples.

Results

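Border-associated macrophages are the macrophages of the meninges, the perivascular spaces and the choroid plexus, and here they were taken from injured mouse spinal cord by their transcripts. A cell barcode of the single-cell libraries was a member if it held at least 3 UMIs (unique molecular identifiers, 1 per captured RNA molecule) of Lyve1, Cd163, Mgl2 and Fcna together and at least 1 UMI of Mrc1. It also had to hold under 10 UMIs of Gpnmb, under 5 of the microglial genes P2ry12, Tmem119, Gpr34 and Siglech together, and under 3 of the proliferation genes Mki67 and Top2a together. The members were thus chosen by measured UMIs of these genes. This gate held 53 of 5145 kept barcodes. These 53 comprised 37 of 2975 barcodes in the library labelled as spinal cord treated with an HDAC3 inhibitor, 5 days after injury, and 16 of 2170 in the library labelled as vehicle-treated cord of the same day. HDAC3 removes acetyl groups from histones as the enzyme of the corepressors NCoR and SMRT. The inhibitor, its dose, the strain, the kind of injury and how many animals were pooled are not named in the labels. There is 1 library per group, so 2 libraries and not 2 conditions were compared, no test was made, and every 95% interval below covers counting error only.

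Macrophages of this kind sit outside the neural parenchyma, along vessels and in the meninges, and are long-lived cells that take up proteins, haemoglobin complexes and debris from the fluids around them. In mice they are commonly described in a state rich in the hyaluronan receptor Lyve1 with little MHC class II, and in a state with much MHC class II and little Lyve1. MHC class II molecules present peptides to CD4+ T cells, and their genes share promoter elements, an X box bound by RFX proteins and a Y box bound by NF-Y, through which the coactivator CIITA acts.

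The class II genes divide the members described below, so the promoters of the class II genes that RefSeq's promoter table holds and that carry both elements are shown first. Each is the stretch of 120 bases before the annotated start, 5′ to 3′ on the gene's own strand, on GRCm38.p6 (the mm10 build). Capitals mark letters that match the X box as searched (GNAACT, then 1 or 2 of any base, then TGANG) and, after it, the Y box letters ATTGG. H2-Aa, which codes for the class II alpha chain of I-A, lies on the minus strand with its promoter at chr17:34287824-34287943. H2-Eb1, the beta chain of I-E, has its promoter at chr17:34305747-34305866 on the plus strand. H2-DMb1, a chain of the H2-DM peptide-loading protein, has its promoter at chr17:34153071-34153190 on the plus strand.
H2-Aa: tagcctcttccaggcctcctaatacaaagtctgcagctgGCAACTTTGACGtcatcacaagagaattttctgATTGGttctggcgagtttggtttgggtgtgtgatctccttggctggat
H2-Eb1: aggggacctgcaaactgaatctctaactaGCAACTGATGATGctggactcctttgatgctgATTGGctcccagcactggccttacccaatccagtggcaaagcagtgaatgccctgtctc
H2-DMb1: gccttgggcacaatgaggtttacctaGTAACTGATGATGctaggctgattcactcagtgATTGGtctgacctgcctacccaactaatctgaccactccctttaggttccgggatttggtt
The gap between both matches was 21, 19 and 20 bases in that order. All 32851 promoters of the table were searched on either strand over the 250 bases before the annotated start. ATTGG alone was present in 33.8% and the X box letters in 0.475%. The X box letters followed by ATTGG within 40 bases were present in 0.0365%, which is 12 promoters. The letters searched were chosen with these promoters in view. The matches describe the sequence and not binding, and neither H2-DMa entry held the X box letters.

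The HDAC3 inhibitor library held 38957752 UMIs in 3423 barcodes and the vehicle library 29726813 UMIs in 2523 barcodes. The members had a median of 8444 UMIs (2835 to 22345) and 10248.5 UMIs (2954 to 20781), in the order HDAC3 inhibitor, vehicle that is kept below for values in pairs. Their UMIs summed to 325073 and 160823, and these sums are the totals behind every level in CPM (UMIs per 1000000 UMIs of the members). A gene at 0 could still have been present at up to 3 UMIs, or 9.23 CPM in the HDAC3 inhibitor library and 18.7 CPM in the vehicle library. The median share of mitochondrial UMIs was 2.57% and 3.23%. No member barcode was found in the other library, and no member was called a doublet by Scrublet, which called 21 and 6 of the kept barcodes.

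The members made up 1.24% of kept barcodes in the HDAC3 inhibitor library (95% interval 0.877 to 1.71%, Clopper-Pearson), against 0.737% in the vehicle library (0.422 to 1.19%). The ratio of these shares was 1.69, with an interval of 0.916 to 3.25 that includes equal shares. Among members, Gpnmb-expressing macrophages and microglia together, the shares were 4.0% and 2.35%, a ratio of 1.71 (0.926 to 3.29). The ratio of shares rests on 16 cells in the vehicle library.

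The genes of the gate chose the cells, so their presence is a description. Mrc1, the mannose receptor of macrophages, ranged from 1 to 58 UMIs per cell with a median of 10 in the cells of the HDAC3 inhibitor library, and from 2 to 45 with a median of 11.5 in the vehicle library. Lyve1, the hyaluronan receptor, was found in 26 of 37 and 10 of 16 cells. Cd163, the receptor for haemoglobin-haptoglobin complexes, was found in 28 and 13 cells. Mgl2, a galactose-binding lectin, was found in 23 and 11 cells, and Fcna, the secreted lectin ficolin A, in 15 and 5. Few cells held every marker: 4 and 1 held all of Lyve1, Cd163, Mgl2 and Fcna, while 7 and 1 held a single one of them. Gpnmb was found in 5 and 3 cells, at 1 UMI each. Thinned to 2000 UMIs per cell, Mrc1 was present in 81.1% and 81.2% of members, against 0% and 0.258% of oligodendrocyte barcodes, which stand here for free RNA.

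**Figure D1:**
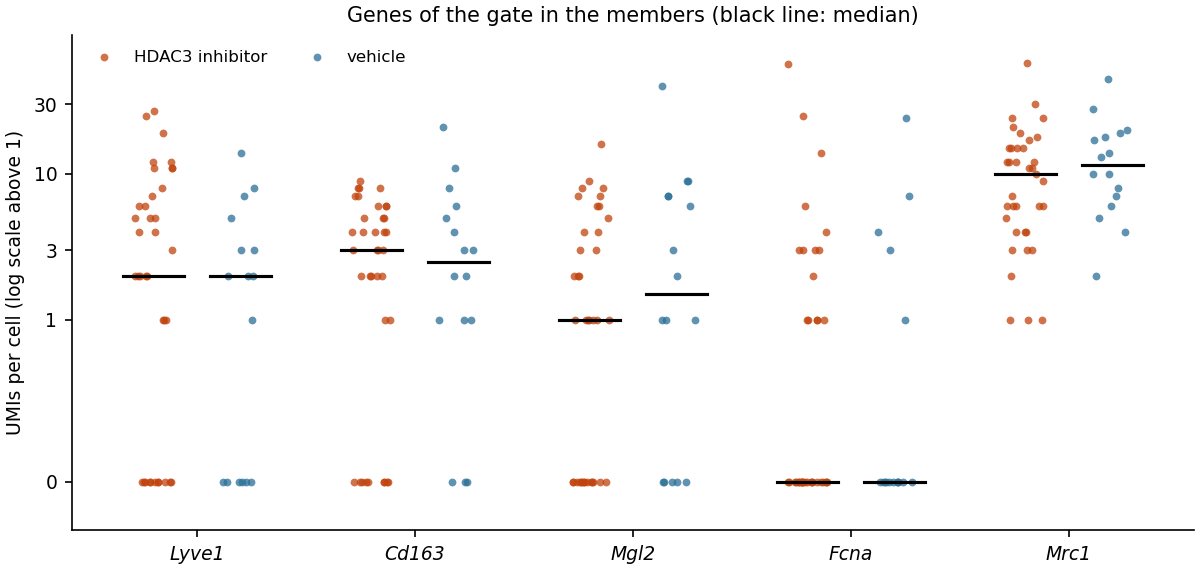
UMIs per cell of the genes that defined the gate, for the 37 members of the HDAC3 inhibitor library and the 16 of the vehicle library, on a log scale above 1 UMI; black lines are medians. Mrc1 was present in every member by the rule, whereas the median of Fcna was 0 in both libraries and single cells reached 57 and 24 UMIs.

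Just outside the gate, the barcodes that met the limits on Mrc1, Gpnmb, microglial and proliferation genes but held fewer than 3 marker UMIs numbered 27 and 14. Of these, 3 and 3 held 2 marker UMIs. Just inside, 4 and 2 members held exactly 3 marker UMIs, and 18 and 8 members held 10 or more. Of 47 and 31 barcodes with at least 3 marker UMIs, 4 and 8 were left out for lack of Mrc1, 2 and 5 for Gpnmb, 4 and 6 for microglial genes, and 3 and 1 for proliferation genes, where 1 barcode could be left out on several counts.

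Further genes known from border macrophages, not used by the gate, were present. Pf4, the chemokine platelet factor 4 that border macrophages also make, was found in every member, at 2452 CPM and 3445 CPM (a ratio of 0.712, 0.638 to 0.795). In Gpnmb-expressing macrophages it was at 268 and 108 CPM, and in microglia at 49.0 and 44.2 CPM. Cbr2, a carbonyl reductase, was at 363 and 211 CPM in members and at no more than 8.01 CPM in either of these classes in either library. Folr2, the folate receptor beta, was at 461 and 572 CPM, against 14 to 19.6 CPM in these classes. F13a1, the factor XIII A subunit, was found in 36 of 37 and 16 of 16 cells. Ms4a7 was at 572 and 790 CPM, and Gpnmb-expressing macrophages held a similar level of it, 614 and 543 CPM. Csf1r, the receptor on which macrophages depend, was found in every member. Spp1, which Gpnmb-expressing macrophages held at 41710 and 33435 CPM, was at 126 and 49.7 CPM in members.

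Markers of other cell types were counted in the same cells. The T and NK cell list and the oligodendrocyte progenitor list were at 0 UMIs in both libraries. Of 10 dendritic cell markers, 6 (Flt3, Cd209a, Clec9a, Ccr7, Itgae and Dpp4) were at 0, and the whole dendritic list summed to 12 and 3 UMIs. The neutrophil list summed to 55 UMIs in the HDAC3 inhibitor library, against 697 in the vehicle library, and a single vehicle member held 665 of the 697. The oligodendrocyte list summed to 156 and 75 UMIs, of which single members held 71 and 47, the 47 in that same vehicle member. The monocyte list summed to 64 and 19 UMIs, with 5 of 9 markers at 0, Ly6c2 among them. The microglia list, which the gate limits in part, summed to 409 and 195 UMIs, or 1.81 to 26.4 and 5.77 to 24.6 per 10000 in single cells, and the Schwann list to 157 and 83 UMIs. The B cell list summed to 35 and 13 UMIs, and the endothelial, lymphatic, mural, fibroblast, astrocyte, ependymal, erythroid and cycling lists to at most 20 each. The part these transcripts play in the ratios was not tested, and values without the members that carry them are given where they differ.

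The members were set beside the most similar cells of the same libraries, Gpnmb-expressing macrophages and microglia. The contrast shares the gate's genes and is a description. Of 526 measured genes (100 or more UMIs over all members and a level of 50 CPM or more in either library), 231, or 43.9%, were at least 1.5 times as high in members as in Gpnmb-expressing macrophages in both libraries, and 44 (8.37%) at most 1/1.5. Against microglia the numbers were 121 (23%) and 46 (8.75%). The filter for measured genes used the members' own UMIs, so genes high in the other classes alone were left out. It favours genes higher in members in advance, here and in the count that follows, and the counts of higher and lower genes cannot be weighed against each other. Of the measured genes 90 were at least 1.5 times as high as in both classes in both libraries, among them 5 of 6 class II genes, 9 of 12 chemokine genes and 4 of 5 scavenger and efferocytosis receptors, while Trem2 of that last list was lower than in both classes. Ccl8, a monocyte-attracting chemokine, had the highest ratio over both classes, at 1046 and 1368 CPM in members and at most 3.16 CPM in the others. It was found in 9 of 37 and 3 of 16 members, and single cells held 58.8% and 95.9% of its UMIs. H2-Eb1 was at 1938 and 3693 CPM in members and at most 33.0 CPM in the others. Clec10a, a lectin near-identical in part to Mgl2, was at 178 and 354 CPM against at most 4.70 CPM. Ccl7, a monocyte chemokine, was at 1049 and 684 CPM against at most 26.9 CPM. C4b, complement component 4, was at 917 and 690 CPM against at most 42.1 CPM, and oligodendrocyte barcodes also held it, at 235 and 234 CPM. Cxcl1, a neutrophil-attracting chemokine, was at 978 and 889 CPM against at most 73.9 CPM. Hgsnat, a lysosomal acetyltransferase, was at 197 and 267 CPM against at most 20.4 CPM.

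The members fell into 2 ranges of MHC class II transcripts. The sum of H2-Aa, H2-Ab1 and H2-Eb1 was 0 UMIs in 16 of 37 HDAC3 inhibitor cells and 6 of 16 vehicle cells. A limit of 10 UMIs per 10000, set after these values had been seen, left 14 of 37 cells above it in the HDAC3 inhibitor library (37.8%, 22.5 to 55.2%) and 10 of 16 in the vehicle library (62.5%, 35.4 to 84.8%). Above the limit, called class II-high here, the sum ranged from 15.1 to 513 per 10000 in the HDAC3 inhibitor library with a median of 158, and from 52.7 to 442 in the vehicle library with a median of 206. Below it, class II-low, the highest cell was at 9.05 per 10000 in the HDAC3 inhibitor library, against 0 in the vehicle library. Between 5 and 20 per 10000 lay 3 HDAC3 inhibitor cells and 0 vehicle cells. The same limit was reached by 1.30% and 0.873% of Gpnmb-expressing macrophages and by 1.41% and 1.14% of microglia. Oligodendrocyte barcodes reached it in 0.333% and 0.5%.

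The ratio of the class II-high share of members was 0.605 between the libraries, with an interval of 0.250 to 1.52 that includes equal shares. As a share of all kept barcodes, class II-high members were 0.471% in the HDAC3 inhibitor library, against 0.461% in the vehicle library, a ratio of 1.02 (0.422 to 2.57). Class II-low members were 0.773% and 0.276% of kept barcodes, a ratio of 2.80 (1.11 to 8.39), which rests on 23 and 6 cells.

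Csf1r was found in all 14 and all 10 class II-high cells, and Flt3, the growth factor receptor of dendritic cells, was at 0 UMIs in every member. The chemokine receptor gene Ccr2 was found at 3 and 4 UMIs in single class II-high cells of the HDAC3 inhibitor library. Both held Mgl2 but no Lyve1, Cd163 or Fcna. Class II-high members could be another macrophage state with Mrc1 and Mgl2, and this was not tested. The other border macrophage markers, 32 genes that the gate did not use, summed to a median of 96.5 per 10000 in class II-high cells and 141 in class II-low cells of the HDAC3 inhibitor library. In the vehicle library the medians were 89.8 and 165, and class II-high cells reached 124 per 10000, about where class II-low cells began. In the HDAC3 inhibitor library the ranges overlapped, with class II-low cells from 63.6 and class II-high cells up to 152 per 10000. Across cells, Spearman's rho between the class II sum and this marker sum was -0.61 over 37 cells and -0.93 over 16 cells. Thinned to 2000 UMIs per cell, rho was -0.54 and -0.81. Both sums are shares of the same cell's UMIs, and cells of 1 library share its preparation. The class II sum and the cell's depth had a rho of 0.016 and -0.50.

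**Figure D2:**
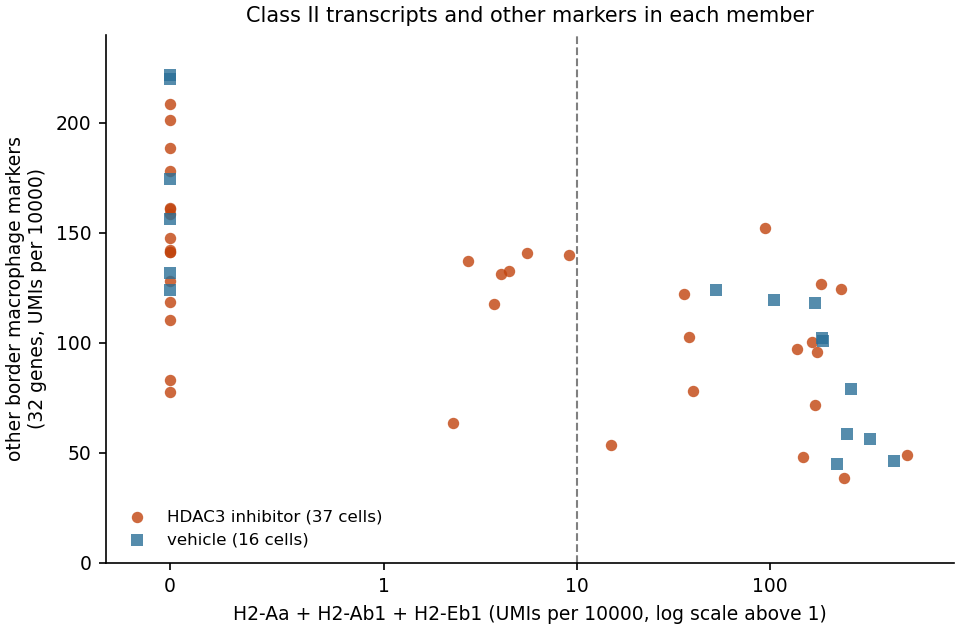
Each point is 1 member; the x axis is the sum of H2-Aa, H2-Ab1 and H2-Eb1 in UMIs per 10000 (log scale above 1), the y axis the sum of 32 other border macrophage markers in UMIs per 10000, and the dashed line the limit of 10. Cells at 0 on the x axis reach the highest marker sums in both libraries, and the 16 vehicle cells leave the range between 0 and 52.7 empty.

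Of the 526 measured genes, 36 (6.84%) were at least 1.5 times as high in class II-high as in class II-low cells in both libraries, and 54 (10.3%) at most 1/1.5 in both. In the HDAC3 inhibitor library alone 56 were higher and 87 lower, in the vehicle library alone 128 and 112, and 9 genes passed in opposite directions. The class II genes lead by construction. Cd74, the invariant chain that escorts class II molecules, was at 14814 CPM in class II-high and 576 CPM in class II-low cells of the HDAC3 inhibitor library, and at 18792 and 269 CPM in the vehicle library. H2-DMb1 followed with log2 differences of 3.57 and 2.71.

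Other genes higher in class II-high cells had varied roles. Mgl2, a gene of the gate, had log2 differences of 2.07 in the HDAC3 inhibitor library, against 4.44 in the vehicle library. It was the only one of the summed gate markers in 4 and 1 members, all of them class II-high. The gate thus takes part in this contrast and in those of Fcna, Cd163 and other border macrophage markers below, and how far was not tested. Il1b, the cytokine interleukin-1 beta, was at 1245 CPM in class II-high and 366 CPM in class II-low cells of the HDAC3 inhibitor library, and at 4815 and 2066 CPM in the vehicle library. Cd83, a protein of activated antigen-presenting cells, had log2 differences of 0.91 and 1.39. Cd14, the lipopolysaccharide coreceptor, had 0.65 and 0.78, and Cxcl16, a membrane-bound chemokine, 0.99 and 0.78. Cd52, a surface glycopeptide of leukocytes, had 1.65 and 0.71.

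Among the 54 genes higher in class II-low cells were 11 of 17 measured border macrophage markers outside the gate, 4 of 5 scavenger and efferocytosis receptors and 3 of 5 growth factor and matrix genes. Of 12 chemokine genes 1 was higher in class II-low cells, 1 was higher in class II-high cells and 10 passed in neither direction. Fcna, a gene of the gate, was found in 14 of 23 class II-low and 1 of 14 class II-high cells of the HDAC3 inhibitor library, and in 5 of 6 and 0 of 10 of the vehicle library. Ccl8 was found in 8 and 1 cells of the HDAC3 inhibitor library, and in 3 and 0 of the vehicle library. Stab1, a scavenger receptor, was lower in class II-high cells by log2 differences of -1.60 and -1.45. Cbr2 had -1.80 and -1.42, and Nrp1, the receptor neuropilin 1, had -1.96 and -2.41. Cd163 had -0.91 and -0.78, Folr2 -0.74 and -2.39, Gas6 (a ligand that bridges dying cells to phagocytes) -0.99 and -1.16, and the transcription factor Maf -1.17 and -1.05. Selenop, the selenium carrier selenoprotein P, was at 1088 CPM in class II-high and 2127 CPM in class II-low cells of the HDAC3 inhibitor library, and at 1265 and 2434 CPM in the vehicle library. Of 18 measured lysosomal genes 4 were lower in class II-high cells in both libraries and 14 passed in neither direction. The protease Ctsd had -2.12 and -2.43 and Ctsb -0.65 and -1.12, whereas Ctsh had 0.37 and 0.23 and Ctss 0.53 and -0.54.

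Of 18 measured immediate-early and stress genes 7 were lower in class II-high cells in both libraries, 1 was higher and 10 passed in neither direction. Fos had log2 differences of -2.15 and -2.61, Egr1 -1.90 and -3.29, Jun -2.25 and -1.47, and Nr4a1 -1.84 and -1.73. Jund was the higher gene, with 0.82 and 0.86, while Junb had -0.15 and -0.11 and Fosb -0.01 and -0.18. Mbp, a myelin gene that oligodendrocytes make, was also higher in class II-low cells, with -2.82 and -2.87, and it counts here as a transcript of other cells. Mrc1 differed by -0.49 and -0.48, and Lyve1 by -0.47 and 0.08, so neither passed 1.5-fold in both libraries.

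**Figure D3:**
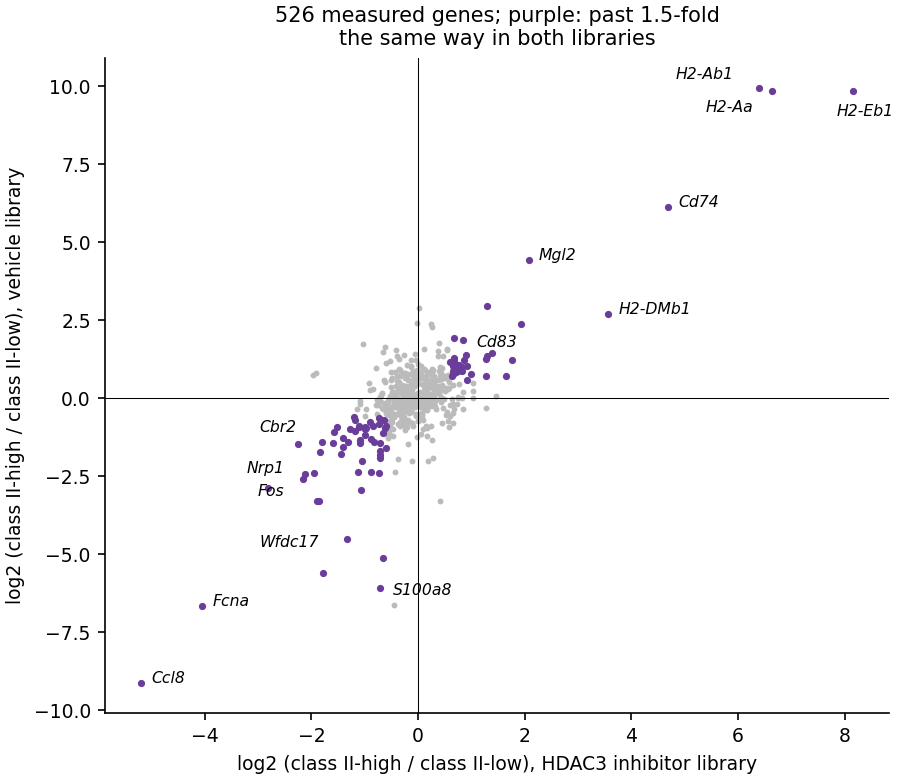
Each point is 1 of 526 measured genes, with the log2 ratio of class II-high over class II-low members in the HDAC3 inhibitor library on the x axis and in the vehicle library on the y axis (0.5 UMI was added where a sum was 0, which sets the farthest points). Purple genes, 36 higher and 54 lower, passed 1.5-fold the same way in both libraries, with H2 genes and Cd74 at the top right and Ccl8 and Fcna at the bottom left.

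Between the libraries, the members of the HDAC3 inhibitor library held less Il1b, metallothionein and class II RNA and more Klf4 and Jun. Of 526 measured genes, 44 (8.37%) were at least 1.5 times as high in the HDAC3 inhibitor library and 59 (11.2%) at most 1/1.5. The median log2 ratio over the 526 genes was -0.0019. Because the libraries differ in their mix of class II-high and class II-low cells, each ratio was also taken within both ranges. Of the 44 higher genes, 42 had the same sign in both ranges and 11 passed 1.5-fold in both. Of the 59 lower genes, 48 had the same sign and 25 passed in both.

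Among the measured genes that no single cell carried and that were not set aside for possible free RNA, Il1b had the lowest ratio (chromosome 2, 129364570 to 129371139, mm10). It was at 677 CPM in the HDAC3 inhibitor members (590 to 772, exact Poisson) and 3606 CPM in the vehicle library (3319 to 3912), a ratio of 0.188 (0.160 to 0.220). It was found in 15 of 37 cells and 13 of 16 cells, with a median of 0 and 23.5 UMIs and a maximum of 47 and 107 UMIs. The cells overlap in range, and more of the HDAC3 inhibitor cells held none. Thinned to 2000 UMIs per cell, 29.7% and 75% of members held Il1b, against 1.71% and 2.07% of oligodendrocyte barcodes. The ratio was 0.259 (0.212 to 0.313) in class II-high and 0.177 (0.133 to 0.235) in class II-low cells. In Gpnmb-expressing macrophages the ratio of the libraries was 0.743, and in microglia 0.816.

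Mt1, a zinc-binding metallothionein, was at 2113 CPM in the HDAC3 inhibitor library and 6622 CPM in the vehicle library, a ratio of 0.319 (0.290 to 0.352). Its median was 10 UMIs per cell in the HDAC3 inhibitor library, against 52 in the vehicle library, and 36 of 37 and 15 of 16 cells held it. The ratio was 0.346 in class II-high and 0.376 in class II-low cells, and it was 0.949 in Gpnmb-expressing macrophages and 0.972 in microglia. Astrocyte barcodes held Mt1 at up to 21779 CPM, and the part of free RNA in the members' Mt1 was not tested. Mt2, a second metallothionein, was at 148 and 522 CPM in members and at 3536 CPM in astrocyte barcodes. A single vehicle member held 48.8% of its vehicle UMIs.

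Several regulators of transcription were among the lowest. Klf2, a Krüppel-like factor, was at 412 and 1119 CPM (0.368, 0.292 to 0.463), with ratios of 0.108 in class II-high and 0.703 in class II-low cells. Oligodendrocyte barcodes also held Klf2, at 853 and 724 CPM. Id2, an inhibitor of helix-loop-helix factors, was at 274 and 672 CPM (0.408, 0.304 to 0.545). Etv3, an ETS-family factor, was at 135 and 354 CPM (0.382, 0.252 to 0.576), and Nr4a1 at 163 and 336 CPM (0.486, 0.326 to 0.723). Id2, Etv3 and Nr4a1 were lower in both class II ranges by more than 1.5-fold. Isg15, an interferon-induced ubiquitin-like protein, had a ratio of 0.365 (0.243 to 0.545) over all members, but 2.13 (0.857 to 5.99) in class II-high and 0.162 (0.0973 to 0.263) in class II-low cells. Ptpn1 (0.435), Bcl2a1d (0.436), Snu13 (0.460) and Basp1 (0.462) complete the lowest genes with Ccl12 and H2-Aa. Bcl2a1d has near-identical copies, so its level is uncertain.

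The highest gene was Klf4 (chromosome 4, 55527143 to 55532466, mm10), a Krüppel-like factor that promotes monocyte differentiation. It was at 326 CPM in the HDAC3 inhibitor library (267 to 394) and 43.5 CPM in the vehicle library (17.5 to 89.7), a ratio of 7.49 (3.51 to 19.1). It was found in 26 of 37 cells and 4 of 16 cells, with at most 16 and 3 UMIs in a cell, and its vehicle sum was 7 UMIs. The ratio was 17.3 (2.79 to 712) in class II-high and 4.71 (2.07 to 13.2) in class II-low cells. In Gpnmb-expressing macrophages it was 1.45 and in microglia 1.05. Oligodendrocyte barcodes also held Klf4, at 209 CPM in both libraries.

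Jun, a subunit of AP-1, was at 538 and 118 CPM (4.56, 2.83 to 7.75), and a single vehicle member held 52.6% of the vehicle UMIs. Oligodendrocyte barcodes held Jun at 900 and 878 CPM. Fosb, another AP-1 subunit, was at 403 and 211 CPM (1.91, 1.30 to 2.87). Maf, a transcription factor of macrophages, was at 772 and 603 CPM (1.28, 1.01 to 1.64).

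Other genes among the highest were Ahnak (2.41, 1.56 to 3.88), Tmem256 (2.05), Metrnl (2.0, a secreted meteorin-like protein), Ccl3 (2.0), Cox5a (1.98), Pid1 (1.93) and Crip1 (1.92), with Lyve1 of the gate. Ahnak and Crip1 were higher mainly in class II-high cells, with ratios of 5.36 and 3.0 there and 1.43 and 1.32 in class II-low cells. Ccl3 went the other way, with 1.22 in class II-high and 4.12 in class II-low cells. These differences between the ranges were not tested.

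**Figure D4:**
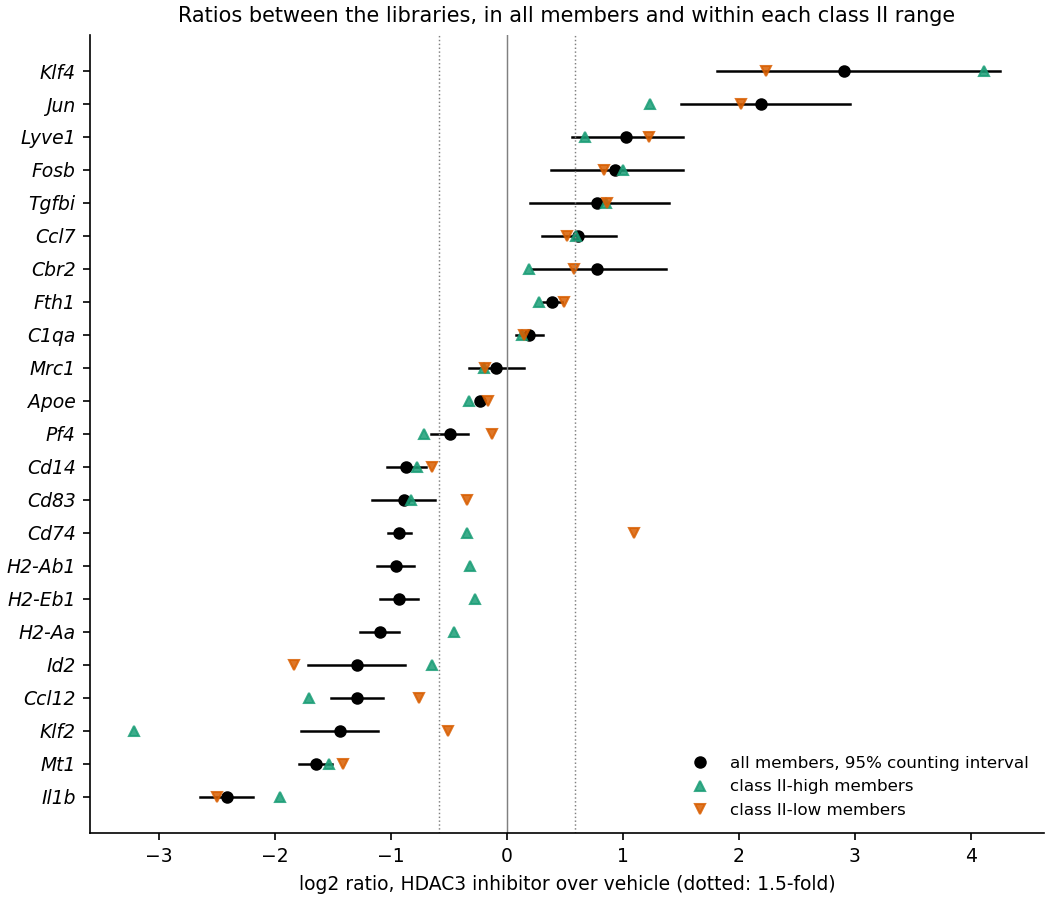
Log2 ratio of CPM, HDAC3 inhibitor over vehicle, for 23 genes; black points are all members with 95% counting intervals, triangles the class II-high and class II-low members alone (left out where a sum was 0), and dotted lines 1.5-fold. Il1b, Mt1 and Id2 lie left of the dotted line in both ranges and Klf4 and Jun right of it, while the class II genes in class II-high members lie between the dotted lines.

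Of the genes of the gate, Lyve1 (chromosome 7, 110850607 to 110863239, mm10) was at 597 CPM in the HDAC3 inhibitor library and 292 CPM in the vehicle library. Its ratio was 2.04 (1.48 to 2.87), with 1.60 in class II-high and 2.34 in class II-low cells. Fcna was at 385 and 243 CPM (1.59, 1.10 to 2.33), but its ratio in class II-low cells, which hold nearly all of it, was 1.04 (0.722 to 1.54). Mrc1 was at 1317 and 1405 CPM (0.937, 0.796 to 1.11) and Cd163 at 381 and 423 CPM (0.902, 0.666 to 1.23). Mgl2 was at 305 and 535 CPM, and 1 vehicle cell held 46.5% of the vehicle UMIs.

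The 26 measured of 32 other border macrophage markers were split, 14 higher and 12 lower, with a median log2 ratio of 0.08. Over all 2880 genes with at least 20 UMIs the median was 0.032 and 1477 were higher, and 501 (17.4%) passed 1.5-fold upwards and 431 (15%) downwards. Past 1.5-fold upwards, 6 of the 26 were found, and 2 downwards. Ltc4s, leukotriene C4 synthase, was at 578 and 342 CPM (1.69, 1.25 to 2.33), Cbr2 had 1.72 (1.16 to 2.59) and Tgfbi, a secreted matrix protein induced by TGF-beta, 1.72 (1.15 to 2.63). Stab1 (1.13), F13a1 (1.12), Gas6 (0.908) and Folr2 (0.807) had intervals that include 1. Macrophage identity genes had 3 of 12 higher and a median of -0.10. Lyz2, lysozyme, was at 13169 and 11323 CPM, and Csf1r at 975 and 1163 CPM (0.839, 0.698 to 1.01).

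All 8 measured genes of the class II list were lower in the HDAC3 inhibitor library, with a median log2 ratio of -0.92, and 5 passed 1.5-fold. H2-Aa was at 1704 and 3644 CPM (0.468, 0.416 to 0.526), H2-Ab1 at 2030 and 3936 CPM (0.516, 0.462 to 0.576), H2-Eb1 at 1938 and 3693 CPM (0.525, 0.468 to 0.588), and Cd74 at 5608 and 10651 CPM (0.526, 0.493 to 0.563). Within class II-high cells the ratios were nearer to 1, at 0.728, 0.801, 0.827 and 0.788 in that order, and the median of the list was -0.31. In class II-low cells the median was 0.56, where the vehicle sums of H2-Aa, H2-Ab1 and H2-Eb1 were 0. Over all members, the lower class II level went with a smaller share of class II-high cells, and the interval of that share's ratio includes equal shares. MHC class I genes had 3 of 10 higher and a median of -0.12, with H2-D1 at 2187 and 2189 CPM.

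Chemokine genes went both ways, 6 of 14 higher, with a median of -0.16. Cxcl2, a neutrophil attractant, was the most abundant, at 8210 and 9986 CPM (0.822, 0.773 to 0.875), and was found in 31 of 37 and 15 of 16 cells. Ccl12, a monocyte attractant of mice, was at 947 and 2319 CPM (0.409, 0.350 to 0.476), with ratios of 0.308 in class II-high and 0.593 in class II-low cells. It was found in 31 of 37 and 16 of 16 cells, with a median of 2 and 10.5 UMIs. Ccl2 (0.968, 0.787 to 1.2) and Cxcl1 (1.10, 0.900 to 1.35) had intervals that include 1, and Ccl7 had 1.53 (1.23 to 1.92). Ccl4 was at 1803 and 1449 CPM, and a single HDAC3 inhibitor member held 48.8% of its UMIs there. Cxcl16 was at 225 and 435 CPM (0.516, 0.367 to 0.727), lower than in vehicle in both class II ranges.

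Of 9 measured inflammatory cytokine genes 7 were lower in the HDAC3 inhibitor library, and their median log2 ratio was -0.39. Besides Il1b, Nfkbia, the inhibitor of NF-kappaB, was at 1080 and 1163 CPM, and Nfkbiz, its nuclear relative, at 517 and 678 CPM. Tnf was at 188 and 199 CPM (0.943, 0.605 to 1.5) and was found at low counts in both. The 20 vehicle UMIs of Ptgs2, cyclooxygenase 2, came from 1 cell, against 3 UMIs in 3 cells. The median of this list was -0.12 in class II-high and 0.35 in class II-low cells. Interferon response genes had 2 of 11 higher and a median of -0.27, with Ifitm3 at 1772 and 1996 CPM. The interferon median was 0.23 in class II-high and -0.84 in class II-low cells.

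Genes of alternative activation, a list that shares Mrc1, Cd163, Mgl2 and Clec10a with the markers, had 7 of 8 lower and a median of -0.50. Of these, Mgl2 and Clec10a passed 1.5-fold downwards only with the members that held most of their UMIs. The median of the list was -0.51 in class II-high and -0.23 in class II-low cells. Lesion macrophage and lipid genes had 8 of 11 higher and a median of 0.48. Apoe, the lipid carrier, was the most abundant RNA among them and lower, at 47263 and 55365 CPM (0.854, 0.832 to 0.876), while the lipid droplet protein Plin2 was at 455 and 255 CPM (1.79, 1.26 to 2.59). Trem2, a lipid receptor of macrophages, was at 418 and 255 CPM (1.64, 1.15 to 2.39). This median turned to -0.69 with a gate of 2 marker UMIs and to -1.06 without the limit on Gpnmb. Growth factor and matrix genes had 10 of 11 higher and a median of 0.48, with Timp2, an inhibitor of metalloproteinases, at 652 and 441 CPM (1.48, 1.12 to 1.96) and the growth factor gene Tgfb1 at 363 and 261 CPM (1.39, 0.970 to 2.03). The growth factor and matrix median was 0.30 in class II-high and 0.098 in class II-low cells.

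Ribosomal protein genes were higher in 18 of 18 cases with a median of 0.33, and nuclear genes of oxidative phosphorylation in 13 of 18 with a median of 0.41. Cox8a was at 926 and 634 CPM (1.46, 1.16 to 1.85) and Cox4i1 at 840 and 584 CPM (1.44, 1.13 to 1.84). The genes of the mitochondrial genome had 11 of 13 lower with a median of -0.19. The oxidative phosphorylation median was 0.29 in class II-high and 0.25 in class II-low cells, and -0.065 with a gate of 2 marker UMIs. Glycolysis genes had 6 of 9 higher and a median of 0.51, with Gapdh at 606 and 373 CPM.

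Haem and iron genes had 7 of 12 higher and a median of 0.20. The ferritin chains Fth1 and Ftl1 were at 13068 and 9949 CPM and at 9364 and 7916 CPM, with ratios of 1.31 (1.24 to 1.39) and 1.18 (1.11 to 1.26). Hmox1, the haem oxygenase, was at 283 and 479 CPM (0.591, 0.432 to 0.811), and so lower in the HDAC3 inhibitor library. Complement genes were split 5 and 5 with a median of -0.04, and C1qa was at 6005 and 5248 CPM (1.14, 1.05 to 1.24). Lysosomal genes had 10 of 18 higher with a median of 0.0070, scavenger and efferocytosis receptors 6 of 15 with -0.14, and immediate-early and stress genes 5 of 20 with -0.18. Within the last list Jun, Fosb and Klf4 were past 1.5-fold upwards and Klf2 (0.368), Hspa1b (0.421) and Nr4a1 (0.486) past it downwards, whereas Jund (0.869), Junb (0.882) and Dusp1 (0.928) were near 1. Hdac3 itself had 6 and 2 UMIs in all members, 18.5 and 12.4 CPM, a ratio of 1.48 with an interval of 0.265 to 15. Its RNA level does not report on the enzyme's activity under an inhibitor.

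Single cells carried some of these ratios. Each gene's ratio was taken again without the member that held most of its UMIs in each library. Of the 103 genes past 1.5-fold (19.6%), 12 no longer passed, 2 of the higher and 10 of the lower genes. S100a9, a calcium-binding protein of neutrophils, went from 0.0221 to 0.918, because 1 vehicle member held 98.1% of the vehicle UMIs. Its partner S100a8 went from 0.0120 to 0.328, since 8 and 329 UMIs became 6 and 8. That vehicle member, of 20781 UMIs, is the one with 665 neutrophil-list UMIs. Mgl2 went from 0.570 to 0.840 and Clec10a from 0.503 to 0.800, where 1 vehicle cell held 54.4% of the Clec10a UMIs. Akr1a1, an aldo-keto reductase, went from 1.63 to just under 1.5.

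Other ratios near 1 hid single cells. A vehicle member of 20781 UMIs, the deepest of that library with 12.9% of its members' UMIs, held 211 of 220 vehicle UMIs of Ccl8 (95.9%). The same barcode held the 665 neutrophil-list UMIs, 47 oligodendrocyte-list UMIs and 31 of 57 vehicle Clec10a UMIs. It is 1 of the 6 class II-low vehicle cells, whose UMIs sum to 70680, so it weighs on every class II-low ratio. Without the top member in each library the Ccl8 ratio went from 0.765 to 6.89, on 140 and 9 UMIs. Of those 140, 1 other HDAC3 inhibitor cell held 100, so a single cell also carries much of the second ratio. In the HDAC3 inhibitor library 1 cell held 200 of 340 UMIs of Ccl8 (58.8%). Wfdc17, a gene with near-identical copies, went from 1.0 to 3.29, with 77.3% of the vehicle UMIs in 1 cell. In contrast, Il1b went from 0.188 to 0.174, Mt1 from 0.319 to 0.299, Klf4 from 7.49 to 9.94, and H2-Aa went from 0.468 to 0.439. Leaving out 1 cell takes away more of 16 cells than of 37, and the median log2 ratio of the measured genes moved by 0.069 with this step.

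**Figure D5:**
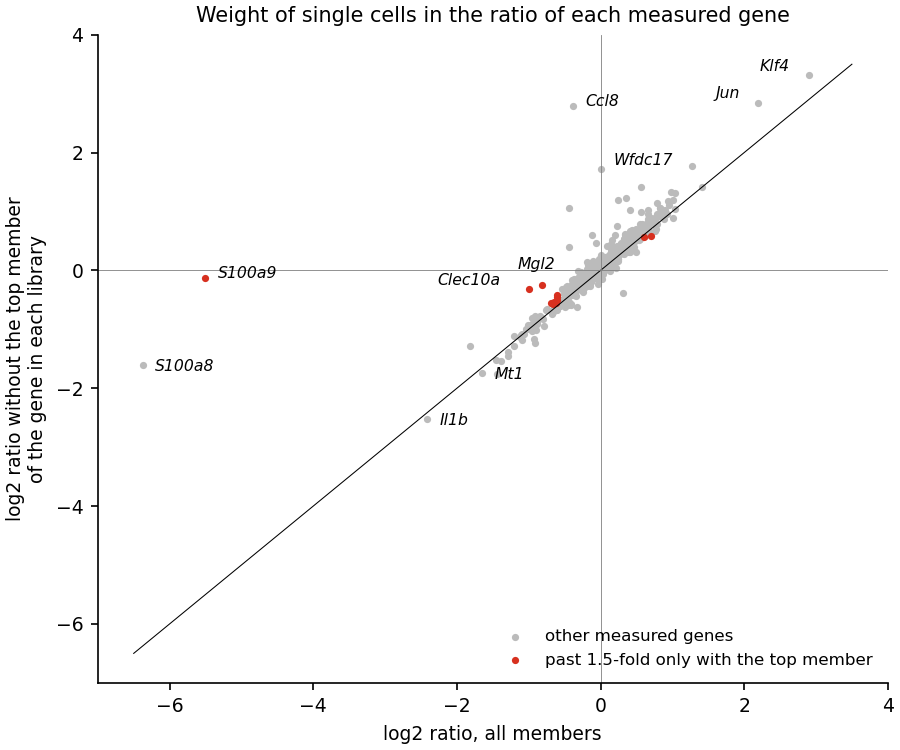
Log2 ratio of each of 526 measured genes over all members (x axis) and without the member holding most UMIs of that gene in each library (y axis); the line marks equality and the 12 red genes are past 1.5-fold only with that member. S100a9 moves from -5.50 to near 0 and Ccl8 rises far above the line, while Il1b, Mt1, Klf4 and Jun stay past 1.5-fold.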

How the data were processed

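Cells of injured mouse spinal cord were profiled with the 10x Genomics 3' version 3 kit, per the labels. The deposited matrices hold UMI counts per gene and barcode, which the authors made with Cell Ranger (version 3.0.2, per the file headers). The build mm10 and the tool Seurat come per the submitters' processing notes. No source used here says how reads matching several genes were counted. A barcode was kept if it had 500 or more genes, 1000 or more UMIs and no more than 15% of UMIs from mitochondrial genes. Gpnmb-expressing macrophages had at least 10 UMIs of Gpnmb, and microglia at least 5 UMIs of the 4 microglial genes, with the other limits as in the gate. Oligodendrocyte barcodes had at least 20 UMIs of a short list of oligodendrocyte markers. Genes held back for evaluations are left out of the text.

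UMIs of members were summed per library. Ratios of CPM, HDAC3 inhibitor over vehicle, have exact conditional binomial 95% intervals, levels exact Poisson intervals and shares Clopper-Pearson intervals. With 1 library per group no test was made, and a gene past 1.5-fold is described as higher or lower by its values. So is a list of at least 4 measured genes with a median log2 ratio of at least 0.32 from 0, if over 2 in 3 of them go 1 way. Mitochondrial, ribosomal, haemoglobin and unnamed genes and duplicated symbols were left out of the 526 ranked genes. Named are the gate's genes, Hdac3, the 12 highest and 12 lowest ratios that no single cell carries and that are at most 10 times as high in another class, up to 4 carried genes, the 12 genes highest over both similar classes, and the most abundant genes of each list. Genes of the class II ranges, Ptgs2, Fn1 and Osm were chosen after their values had been seen. Members and lists were chosen with earlier results of these data known. Python 3.11.15, numpy 2.4.6, scipy 1.17.1, scanpy 1.11.5 (Scrublet) and edgeR 4.0.16 (TMM factors alone) were used, and the ratio and its intervals were checked on simulated data. Promoter sequences are from RefSeq on GRCm38.p6, and gene positions from GENCODE M21.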

Additional observations from a re-analysis of the deposited data

Results flagged for a closer look

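Some comparisons are singled out because the members' ratio between the libraries and that of a similar class pointed in opposite directions. In each case the difference was not tested, since there is 1 library per group. Ccl12 had a ratio of 0.409 in members and 5.33 (3.35 to 8.93) in Gpnmb-expressing macrophages, where it was at 15.4 and 2.89 CPM, beside 4.71 and 3.88 CPM in oligodendrocyte barcodes, which stand for free RNA. Ccl7 had 1.53 in members and 0.511 (0.378 to 0.685) in microglia, where it was at 13.4 and 26.3 CPM. Fcna, a gene of the gate, had 1.59 in members and 0.0776 (0.0327 to 0.158) in microglia, where it was at 1.58 and 20.4 CPM. The microglial limit left 4 and 6 barcodes with at least 3 marker UMIs out of the gate, and such barcodes can enter the microglia class. Their part in the Fcna ratio of microglia was not tested.

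H2-Aa had 0.468 in members, 2.88 (2.21 to 3.8) in Gpnmb-expressing macrophages and 1.59 (1.23 to 2.06) in microglia. H2-Ab1 had 0.516 in members and 1.82 (1.48 to 2.25) in Gpnmb-expressing macrophages. H2-Eb1 had 0.525 in members, 6.20 (4.23 to 9.42) in Gpnmb-expressing macrophages and 2.63 (1.98 to 3.52) in microglia. Oligodendrocyte barcodes held H2-Aa at 22.1 and 21.0 CPM, H2-Ab1 at 26.8 and 18.9 CPM and H2-Eb1 at 34.0 and 23.8 CPM. In Gpnmb-expressing macrophages H2-Aa was at 28.3 and 9.81 CPM, H2-Ab1 at 32.1 and 17.6 CPM, and H2-Eb1 at 25.9 and 4.19 CPM. In microglia H2-Aa was at 29.1 and 18.3 CPM and H2-Eb1 at 33.0 and 12.5 CPM. These levels lie near or below that background, as does Ccl12 in the vehicle library, so no direction is read from them. The background itself rests on few barcodes, since H2-Eb1 was found in 2.0% and 1.75% of oligodendrocyte barcodes and Ccl12 in 1.66% and 2%. Whether it is free RNA was not tested. Hmox1 had 0.591 in members and 1.68 (1.59 to 1.77) in Gpnmb-expressing macrophages. Isg15 had 0.365 and 1.61 (1.47 to 1.77), and Klf2 0.368 and 1.81 (1.58 to 2.09), in members and Gpnmb-expressing macrophages. There Isg15, at 145 and 90.3 CPM, and Klf2, at 71.1 and 39.3 CPM, were below oligodendrocyte barcodes (218 and 156, 853 and 724 CPM), and no direction is read for either. Isg15 was found in 67.8% and 71.6% of Gpnmb-expressing macrophages, against 21.5% and 20.25% of oligodendrocyte barcodes, which are less deep. For Klf2 these shares were 42.4% and 41.9%, against 30.1% and 41%.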

How the results depend on the processing

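No paired analysis was possible because each group has 1 library and the replicate numbers follow accession order. Scaling by TMM moved every log2 ratio by 0.052 and the median of ratios by 0.0019. The ratio of the members' shares stayed between 1.5 and 1.95 over the alternatives run, and every interval included 1. These alternatives did not vary the limits on Mrc1, microglial and proliferation genes. Before any of the gate's other limits, 47 of 2975 and 31 of 2170 kept barcodes held at least 3 marker UMIs. The count of 44 higher genes became 14 of 170 measured in class II-high and 20 of 275 in class II-low members (ranges chosen after seeing the data), 79 without the top member of each gene, 96 after thinning, 501 of 2880 with at least 20 UMIs and no CPM minimum, and 9 of 222 with at least 200 UMIs. The count of 59 lower genes became 24, 34, 431 and 23 in those class II-high, class II-low, 20-UMI and 200-UMI settings, and 28 of 227 without members holding 10 UMIs of other cell types' markers. Genes carried by single cells were 35 with at least 2 marker UMIs, 6 with 3 per 10000 and 5 in class II-high members. The cause was not tested, except that fewer cells or genes enter some settings.

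Directions turned as follows, on the log2 scale. With at least 2 marker UMIs, Spp1 was at -6.31, Plin2 and the lesion and lipid list at -0.69, the oxidative phosphorylation list at -0.065 and Akr1a1 at -0.38. Without the Gpnmb limit, Spp1 was at -5.09, the lesion and lipid list at -1.06, Akr1a1 at -0.18 and the cytokine list at 0.021. In class II-low members, H2-Aa was at 2.82, H2-Ab1 at 3.29 and H2-Eb1 at 1.60 (0.5 UMI added to vehicle sums of 0), Cd74 at 1.10, Mgl2 at 1.75, the class II list at 0.56 and the cytokine list at 0.35. In class II-high members, Clec10a was at 2.56 and Isg15 at 1.09. With Mgl2 out of the marker sum it was at 0.033. Thinning put Akr1a1 at -0.14 and Pid1 at -0.094. Without members with 10 UMIs of other cell types' markers, S100a8 was at 0.58 and S100a9 at 1.58, and without the member with neutrophil transcripts S100a9 was at 0.0075.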

Other observations

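Fibronectin, Fn1, had 56 UMIs in 6 of 37 HDAC3 inhibitor members, 32 of them in 1 cell, and 0 UMIs in the 16 vehicle members. Fn1 is also a gene of the monocyte list, which summed to 64 and 19 UMIs in the members. Set over the 3 UMIs that a count of 0 allows in the vehicle library, the observed Fn1 level was 9.23-fold higher. This value leaves out the counting error of the 56 UMIs, so it is not a lower bound. Osm, the cytokine oncostatin M, had 31 UMIs in 14 cells and 3 UMIs in 3 cells, a ratio of 5.11 (1.59 to 26.1). Both were picked after their values had been seen, and both are below the limit of 100 UMIs for ranked genes.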
